A study of Homo sapiens with 12 samples.

Results

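CTCF is a zinc finger protein that binds DNA at insulators and at the anchors of chromatin loops, where the cohesin ring is halted. Losing a single binding site can let an enhancer reach other promoters, usually those of genes nearby. U251 is an established human glioblastoma line with astrocytic features. The U251-APP cells studied here stably express the amyloid precursor protein APP with the K670N and M671L substitutions, a mutant form that raises amyloid beta production. Both groups compared here carry this transgene.

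The comparison set cells that had lost the binding site called CTCF-B (CTCF-B KO, 4 libraries) against the U251-APP cells labelled wild type (4 libraries), and asked how expression differed without that site. Cas9 with a pair of guide RNAs flanking the site made the deletion, single-cell clones were grown from puromycin-resistant, mCherry-positive cells, and the target region was sequenced. The series holds 12 libraries in all, the other 4 being from cells without a second site, CTCF-A, which served only as a further comparison. The sample titles of the CTCF-B KO libraries name MTCH2, a gene on chromosome 11, but the coordinates of the site are not given in the sources used here. The labels do not say how many clones the 4 CTCF-B KO libraries represent, nor whether replicates came from separate cultures. Their cell names differ only in the final number, so all 4 may come from a single clone. A p-value here therefore reflects no more than library-to-library spread, which may be technical. The wild-type libraries carry a label naming CRISPR/Cas9 editing too, but are not described as cloned, so the deletion and the cloning cannot be told apart here. All 11128 genes that reached 10 on the linear scale in at least 4 of the 12 libraries were tested, of the 11178 genes deposited, and 50 were left out.

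Values are the authors' normalised expression on a log2 scale, on which a difference of 1 is a 2-fold change. Sequencing depth is unknown. Any pair of wild-type libraries differed by a median of 0.05 to 0.08 per gene in absolute log2 value, and any pair of CTCF-B KO libraries by 0.06 to 0.08. Pairs across the groups differed by 0.16 to 0.19. Of 20 listed astrocyte and glioma markers 11 were among the genes deposited, with GFAP, VIM and SOX2 among them. The same held for 0 listed microglia markers, 1 of 8 endothelial markers (KDR), 2 of 8 epithelial and 2 of 11 oligodendrocyte markers. Of neuron markers 7 of 16 were there and of fibroblast and mesenchymal markers 5 of 11, so astrocytic transcripts were present beside some of other lineages. The filter on low values removed none of these markers. Levels of the listed markers outside the genes deposited are unknown here.

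CTCF itself was lower in CTCF-B KO, and it fell in CTCF-A KO as well. CTCF log2 values were 11.15, 11.15, 11.11 and 11.17 in wild-type replicates 1 to 4 and 10.90, 10.91, 10.84 and 10.87 in CTCF-B KO. The difference was -0.27 ± 0.03 (SE, n = 4 per group, adjusted p 2.87e-06). MTCH2, which encodes a carrier-like protein of the mitochondrial outer membrane (chr11:47617315-47642623, minus strand, GRCh38), stood at 11.37, 11.32, 11.32 and 11.39 in wild type and at 11.39, 11.34, 11.33 and 11.32 in the knockout. The MTCH2 values overlapped fully, and the difference was -0.0060 ± 0.03 (adjusted p 0.859). The coordinates of the deletion are not given in the sources used here, so whether it touched a transcript is unknown. None of these levels checks the edit.

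APP fell. Wild-type libraries lay at 17.22, 17.23, 17.16 and 17.17 and CTCF-B KO libraries at 16.54, 16.49, 16.55 and 16.56. The groups did not overlap, and APP was at 0.634 of the wild-type level (log2 difference -0.66 ± 0.02, adjusted p 1.12e-10). The deposited table has a single APP row, so reads of the transgene and of the endogenous gene (chr21:25880550-26171128, minus strand, GRCh38) cannot be told apart.

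Across the transcriptome, differences were many and mostly small. The test called 6601 genes, 59.3% of those tested, with 3252 higher (29.2%) and 3349 lower (30.1%) in CTCF-B KO. Of the called genes 3770 differed by less than 1.2-fold, 2229 by 1.2- to 1.5-fold and 443 by 1.5- to 2-fold. At least a 2-fold difference was reached by 42 called higher (0.377%) and 117 called lower (1.05%), and 4-fold by 2 higher and 11 lower. The 4 knockout libraries lay wholly on one side of the 4 wild-type libraries for 5962 genes (53.6%). As most genes were called, a count of called genes in any group below is read against these percentages and against the median difference of all genes, 0.0016.

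**Figure D1:**
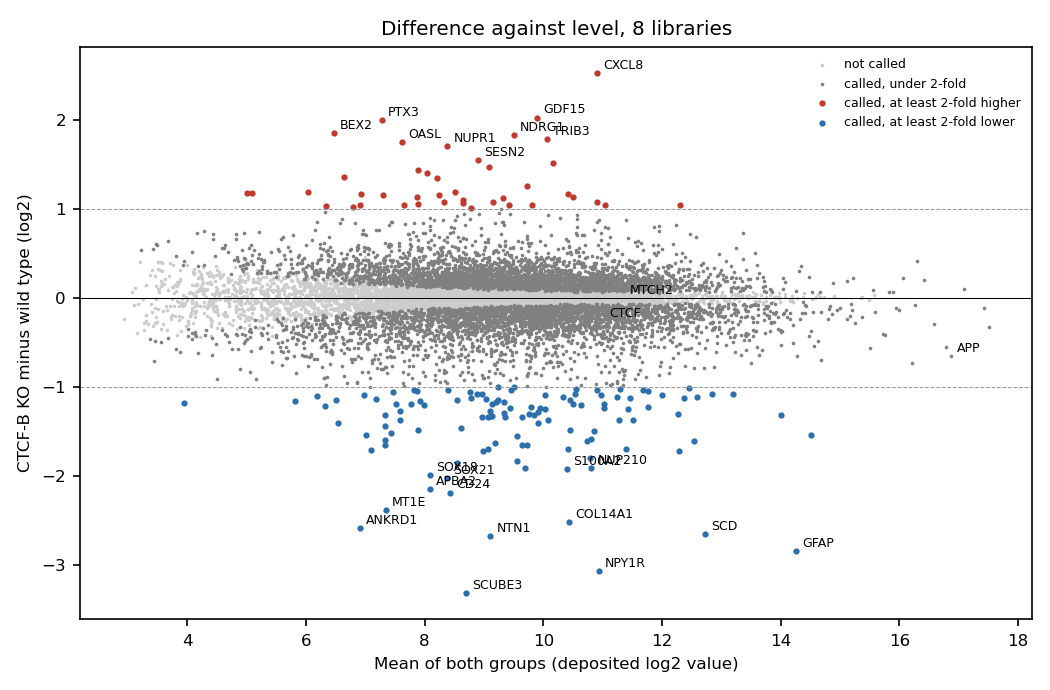
Mean log2 level of both groups (horizontal) against the log2 difference, CTCF-B KO minus wild type (vertical), for 11128 genes. Dashed lines mark 2-fold; 42 genes are called above the upper line and 117 below the lower one, with SCUBE3 lowest at -3.32 and CXCL8 highest at 2.52.

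CXCL8, the neutrophil-attracting chemokine interleukin 8, rose most. Its log2 values were 9.70, 9.52, 9.70 and 9.68 in wild type and 12.08, 12.62, 12.12 and 11.87 in CTCF-B KO. Groups without overlap were a condition for the largest rises and falls named here, so that trait adds no support to them. The fold was 5.74 (log2 2.52 ± 0.12, adjusted p 1.24e-09; chr4:73740506-73743716, plus strand). The stress-induced cytokine GDF15 came next, with 8.91, 8.89, 8.74 and 8.99 in wild type and 10.95, 11.02, 10.87 and 10.78 in the knockout. That is a 4.06-fold rise (log2 2.02 ± 0.06, adjusted p 1.73e-11), far beyond the range within either group. PTX3, a secreted pattern recognition protein, went from between 6.15 and 6.40 to between 8.10 and 8.47, or 3.99-fold.

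The remaining genes among the 20 largest rises ranged from 1.85 to 1.17 on the log2 scale. Several encode proteins of the cellular stress response: TRIB3 (1.79 ± 0.06), a pseudokinase, NUPR1 (1.71 ± 0.06), a chromatin-associated stress protein, and SESN2 (1.54 ± 0.07), a leucine sensor that restrains mTORC1. NDRG1 (1.82 ± 0.11) is a hypoxia- and stress-inducible gene, and OASL (1.75 ± 0.10) is an interferon-induced protein of the oligoadenylate synthetase family. At the cell surface or outside the cell act NT5E (1.51 ± 0.06), the ecto-enzyme CD73 that makes adenosine, LOX (1.47 ± 0.05), which crosslinks collagen, the semaphorin SEMA7A (1.40 ± 0.13) and the protocadherin PCDH10 (1.25 ± 0.05). DUSP6 (1.17 ± 0.08) dephosphorylates ERK. BEX2 (1.85 ± 0.08), DIRAS3 (1.43 ± 0.06), LPXN (1.35 ± 0.08), AKR1C3 (1.35 ± 0.07), ABLIM3 (1.19 ± 0.06), AC008687.4 (1.18 ± 0.10) and the long non-coding RNA ELFN1-AS1 (1.17 ± 0.13) complete the set. For AKR1C3, whose paralogs are nearly identical, and for ELFN1-AS1, which lies near a gene on the other strand, the counting may have split or mixed reads.

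SCUBE3, a secreted protein that can act on TGF-beta receptors, fell most (chr6:35214419-35253079, plus strand). It stood at 10.62, 10.40, 10.01 and 10.42 in wild type and at 7.02, 7.03, 7.004 and 7.13 in CTCF-B KO, 9.95-fold lower (log2 -3.32 ± 0.10, adjusted p 1.96e-11). The knockout libraries were tightly grouped, far under the lowest wild-type library. NPY1R, a receptor for neuropeptide Y (chr4:163323961-163344832, minus strand), went from 12.50, 12.40, 12.43 and 12.54 to 9.33, 9.25, 9.45 and 9.58. It was 8.38-fold lower (log2 -3.07 ± 0.06, adjusted p 7.03e-13), and the groups were again far apart.

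GFAP, the intermediate filament protein that defines astrocytes (chr17:44903161-44916937, minus strand), measured 15.85, 15.74, 15.47 and 15.67 in wild type. In CTCF-B KO it measured 12.87, 12.77, 12.87 and 12.83, which is 7.19-fold lower (log2 -2.85 ± 0.06, adjusted p 9.98e-13). In bulk RNA, fewer cells expressing a gene and less RNA of it per cell cannot be told apart. SCD, the stearoyl-CoA desaturase that makes monounsaturated fatty acids (chr10:100347124-100364834, plus strand), went from 14.10, 14.06, 13.82 and 14.25 to 11.48, 11.26, 11.40 and 11.48. That is 6.28-fold lower (log2 -2.65 ± 0.07, adjusted p 1.35e-11) without overlap.

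The other 16 of the 20 largest falls ranged from -2.68 to -1.72 on the log2 scale. Secreted and matrix proteins among them were the guidance cue NTN1 (-2.68 ± 0.07), the fibril-associated collagen COL14A1 (-2.52 ± 0.05), fibulin FBLN1 (-1.91 ± 0.05) and the heparan sulphate endosulphatase SULF2 (-1.84 ± 0.05). Cell surface adhesion molecules were CD24 (-2.19 ± 0.06), L1CAM (-1.86 ± 0.05) and CADM1 (-1.80 ± 0.03). The transcription factors and cofactors ANKRD1 (-2.58 ± 0.07), SOX21 (-2.02 ± 0.12), SOX18 (-1.99 ± 0.09) and SREBF1 (-1.72 ± 0.06) also fell. The rest were the metallothionein MT1E (-2.39 ± 0.06), the APP-binding adaptor APBA2 (-2.15 ± 0.06), the calcium-binding protein S100A2 (-1.92 ± 0.04), the nuclear pore protein NUP210 (-1.92 ± 0.04) and RIPOR2 (-1.73 ± 0.04). MT1E and CD24 have near-identical copies elsewhere in the genome, so their reads may have been divided.

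**Figure D2:**
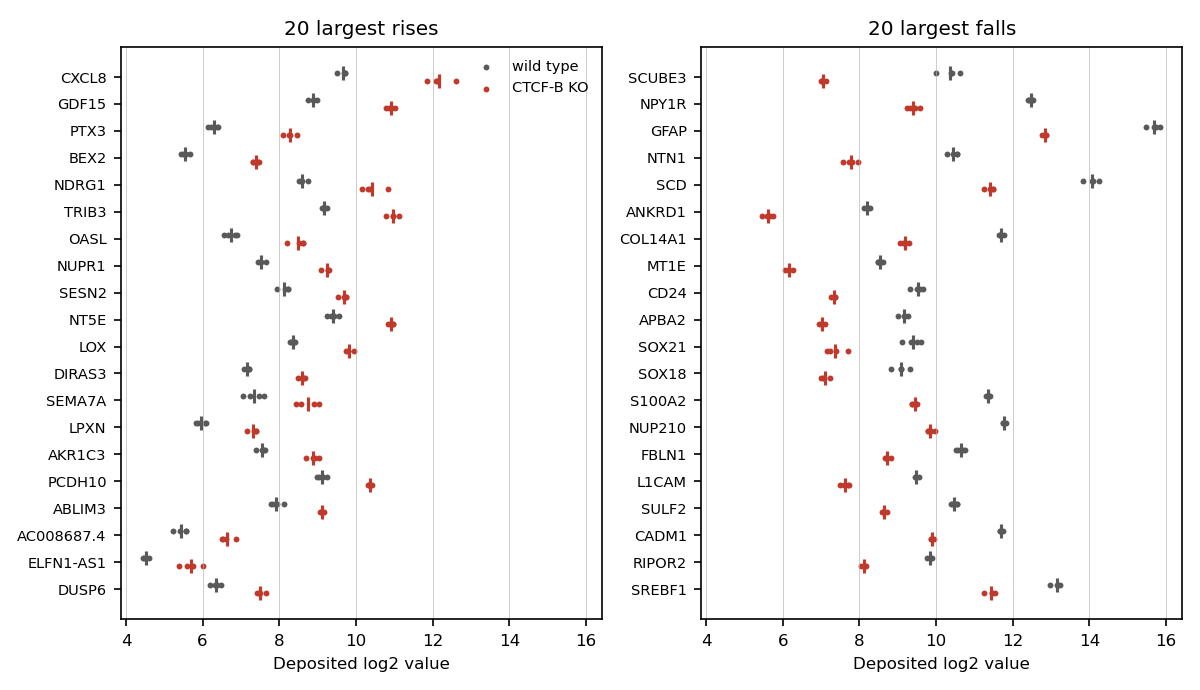
Log2 value of each library (points) and group mean (bars) for the 20 largest rises and the 20 largest falls; wild type in grey, CTCF-B KO in red. Groups without overlap were a condition for the genes shown. GFAP at the far right goes from a mean of 15.68 to 12.83.

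Sterol and fatty acid genes were lower. Cells make cholesterol from acetyl-CoA under control of the SREBP transcription factors. INSIG proteins hold these in the endoplasmic reticulum when sterol is plentiful, and SCAP escorts them out when it is scarce. SREBF2 encodes the form that chiefly drives cholesterol genes, and SREBF1 the form that chiefly drives fatty acid genes. Of 21 cholesterol synthesis enzymes tested, 20 fell and 0 rose, with a median of -0.52. CYP51A1 was the member that did not pass (-0.08 ± 0.06).

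DHCR7, which catalyses the last step to cholesterol in one branch of the pathway, went from 11.15, 11.01, 10.98 and 11.13 in wild type to 10.08, 9.97, 9.93 and 9.98, a 2.11-fold fall (log2 -1.08 ± 0.05, adjusted p 4.94e-10). Lanosterol synthase LSS, which closes the sterol rings, changed by -0.98 ± 0.03. FDPS (-0.53 ± 0.03) and FDFT1 (-0.49 ± 0.03), which act on the way to squalene, changed less. No group overlapped for these 4 enzymes.

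Of 17 genes for sterol control, uptake and efflux, 10 fell and 2 rose (median -0.14). The regulators SREBF1 (-1.72), INSIG1 (-1.69 ± 0.05) and SREBF2 (-0.86 ± 0.03) fell, as did the lipoprotein receptor VLDLR (-0.63 ± 0.03) and the sterol carrier STARD4 (-1.37 ± 0.08). SREBF2 stood at 12.09, 12.02, 11.92 and 12.04 in wild type and at 11.14, 11.18, 11.16 and 11.16 in the knockout, with no overlap. SCAP did not pass (0.0010 ± 0.03), nor did INSIG2 (0.08 ± 0.05). Members that rose were NPC1, which exports cholesterol from lysosomes, and the sterol receptor NR1H2, by 0.33 ± 0.04 and 0.23 ± 0.03.

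In fatty acid synthesis and desaturation 13 of 22 genes fell and 4 rose (median -0.14). Beside SCD, the desaturases FADS2 (-1.70 ± 0.09) and FADS1 (-0.96 ± 0.05) fell, with fatty acid synthase FASN (-1.08 ± 0.03), acetyl-CoA carboxylase ACACA (-0.46 ± 0.03) and the phosphatidate phosphatase LPIN1 (-0.72 ± 0.04). The elongases ELOVL7 (0.38 ± 0.09), ELOVL4 (0.38 ± 0.04) and ELOVL1 (0.25 ± 0.03) and the desaturase SCD5 (0.15 ± 0.03) rose.

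Promoters of these genes were searched for the sterol response element, TCACNCCAC, on both strands, in RefSeq windows (GRCh38.p14) from 250 bases before to 50 after the start. Of the 11128 genes 8350 had such a window. The letters occurred in 84 of 8350 (1.01%) and in 1 of the 52 sterol and fatty acid genes with a window, SREBF2. Its promoter (chr22:41832855-41833154, plus strand) is printed because it is that match in the group, with the element in capitals.
SREBF2: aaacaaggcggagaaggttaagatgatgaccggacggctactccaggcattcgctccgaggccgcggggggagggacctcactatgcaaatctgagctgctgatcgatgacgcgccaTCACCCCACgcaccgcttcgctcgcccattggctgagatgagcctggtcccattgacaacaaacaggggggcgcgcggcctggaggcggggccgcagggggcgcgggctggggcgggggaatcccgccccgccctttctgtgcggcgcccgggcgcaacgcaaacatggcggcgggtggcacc

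Genes of the integrated stress response were higher. In this pathway kinases that sense amino acid lack, misfolded protein, viral RNA or haem lack phosphorylate the initiation factor eIF2, which lowers general translation but raises that of ATF4. ATF4, with C/EBP partners, then drives genes for amino acid supply and for recovery of translation. Of 18 listed genes 14 rose and 2 fell, with a median of 0.79, and 8 rose at least 2-fold. Beside GDF15, TRIB3, NUPR1 and SESN2, these included PPP1R15A (1.05 ± 0.06), which recruits the phosphatase for eIF2, and DDIT4 (1.06 ± 0.06), an inhibitor of mTORC1. TRIB3 stood at 9.15, 9.25, 9.11 and 9.18 in wild type and at 10.98, 11.12, 10.95 and 10.78 in CTCF-B KO. ATF4 itself went from 12.01, 11.94, 11.91 and 12.04 to 12.35, 12.38, 12.31 and 12.27 (0.35 ± 0.03), a smaller difference with no overlap. The kinase EIF2AK4 (-0.17 ± 0.03) and the phosphatase partner PPP1R15B (-0.24 ± 0.03) fell.

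Of 18 genes for amino acid synthesis and transport 16 rose and 1 fell (median 0.46), though 0 reached 2-fold. The transporters SLC6A9 (0.92 ± 0.07), SLC38A1 (0.90 ± 0.05), SLC7A5 (0.79 ± 0.05), its partner chain SLC3A2 (0.69 ± 0.03) and SLC1A5 (0.49 ± 0.03) rose, as did the serine pathway enzyme PSAT1 (0.58 ± 0.04). PHGDH, the first enzyme of serine synthesis, did not pass (-0.04 ± 0.02), and the proline pathway enzyme ALDH18A1 fell (-0.24 ± 0.03). Of 19 cytosolic tRNA synthetases, which charge tRNAs with amino acids, 14 rose and 1 fell (median 0.16; 9 and 0 with all 12 libraries in the fit), led by WARS (0.88 ± 0.03), GARS (0.81 ± 0.03) and CARS (0.45 ± 0.04). The chaperones and sensors of the endoplasmic reticulum did not move one way. Of 20, 6 rose and 9 fell (median -0.03), with the sensor ERN1 (0.59 ± 0.06), its target XBP1 (0.40 ± 0.04) and HERPUD1 (0.36 ± 0.04) higher and PDIA3 (-0.44 ± 0.02), HYOU1 (-0.29 ± 0.02) and PDIA6 (-0.23 ± 0.02) lower.

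The composite C/EBP-ATF element, searched as TGATGNAA on both strands of the same windows, was found in 142 of 8350 promoters (1.7%) and in 6 of 30 of the stress and amino acid genes with a window (20%). The element was present in 5 of the 24 called higher and, in PPP1R15B, in 1 of the 3 called lower. With 3 genes called lower, these counts cannot show whether the letters separate the directions. Promoters of CHAC1, which encodes a glutathione-degrading enzyme (1.04 ± 0.07; chr15:40953221-40953520, plus strand), and of SLC1A5 (chr19:46784765-46785064, minus strand) are shown as the members with the largest rise among these 6. Capitals mark the element. In CHAC1 it reads on the opposite strand, 209 bases before the start, and in SLC1A5 on the gene's strand, 97 bases before it.
CHAC1: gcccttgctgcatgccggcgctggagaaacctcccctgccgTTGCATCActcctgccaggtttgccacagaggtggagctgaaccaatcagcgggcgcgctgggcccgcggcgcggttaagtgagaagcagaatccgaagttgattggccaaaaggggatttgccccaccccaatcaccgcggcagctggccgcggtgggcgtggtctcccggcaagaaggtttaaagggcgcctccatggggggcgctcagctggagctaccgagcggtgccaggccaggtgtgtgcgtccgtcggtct
SLC1A5: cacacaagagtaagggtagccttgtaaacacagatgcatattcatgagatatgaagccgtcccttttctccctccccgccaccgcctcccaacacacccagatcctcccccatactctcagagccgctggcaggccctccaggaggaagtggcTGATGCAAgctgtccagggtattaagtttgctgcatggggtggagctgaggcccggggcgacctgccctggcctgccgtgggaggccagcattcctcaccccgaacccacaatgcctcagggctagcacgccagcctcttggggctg

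Interferon-stimulated genes were higher and varied more between libraries. Interferons act through STAT transcription factors to induce antiviral proteins that sense, sequester or degrade viral RNA. Of 28 tested genes, 21 rose and 3 fell, with a median of 0.47. The median of the list ranged from -0.12 to 0.23 among the wild-type libraries and from 0.38 to 0.63 among the knockout libraries, the widest wild-type range of the 40 lists with at least 5 tested members. Oligoadenylate synthetases make the activator of RNase L. OAS1 went from 7.66, 7.21, 8.38 and 7.40 to 8.77, 8.58, 8.73 and 9.19 (1.16 ± 0.20, adjusted p 2.7e-04), with wild-type replicate 3 well above the other wild-type libraries and just under the lowest knockout library. The RNA-binding protein IFIT2 rose by 1.13 ± 0.08, IFI44 by 0.80 ± 0.10, IFI35 by 0.53 ± 0.05, the tethering protein BST2 by 0.50 ± 0.03 and the transcription factor IRF1 by 0.45 ± 0.04. STAT2 (-0.12 ± 0.05), PARP14 (-0.47 ± 0.10) and IFI27 (-0.66 ± 0.09) fell.

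Antigen presentation genes, many of them interferon-inducible too, did not share this direction, with 4 of 15 higher and 4 lower (median 0.02). With each chromosome centred 4 were higher and 5 lower (median -0.06), and with each 10 Mb window centred 3 and 7 (median -0.06). The peptide transporter chains TAP2 (0.83 ± 0.04) and TAP1 (0.34 ± 0.06) and HLA-E (0.26 ± 0.03) rose, while B2M (-0.36 ± 0.02) and HLA-B (-0.25 ± 0.03) fell. The HLA genes are alike in sequence and may have exchanged reads. Of 8 secreted cytokines and chemokines tested, 5 rose, led by CXCL8, GDF15 and PTX3, and 3 fell, namely CCL2, which attracts monocytes (-1.28 ± 0.07), LIF (-0.75 ± 0.08) and CSF1 (-0.21 ± 0.05). In the NF-kB pathway, which induces CXCL8 and other inflammatory genes, 8 of 13 rose and 0 fell (median 0.14; 5 rose with all 12 libraries in the fit). The atypical inhibitor NFKBIZ (0.88 ± 0.09) and the alternative-pathway subunits RELB (0.78 ± 0.05) and NFKB2 (0.32 ± 0.04) rose most. RELA did not pass (-0.01 ± 0.04).

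The core of the interferon-stimulated response element, searched on both strands as TTTC, any 2 bases and TTTC again, was present in 245 of 8350 promoters (2.93%) and in 15 of 21 interferon genes with a window (71.4%). It was present in 11 of the 16 called higher and in 2 of the 3 called lower. Again the genes called lower are too few to show whether the letters separate the directions. The promoter of IFIT3, a partner of IFIT2 (0.94 ± 0.12; chr10:89332279-89332578, plus strand), holds 2 copies and is shown as the called member with a match and the largest change.
IFIT3: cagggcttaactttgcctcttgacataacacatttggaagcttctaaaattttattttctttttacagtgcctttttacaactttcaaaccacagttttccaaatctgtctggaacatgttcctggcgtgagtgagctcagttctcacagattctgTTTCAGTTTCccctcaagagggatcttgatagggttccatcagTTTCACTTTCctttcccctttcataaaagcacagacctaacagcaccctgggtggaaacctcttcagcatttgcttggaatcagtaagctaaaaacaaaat

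Genes of the ERK feedback loop and early response rose together. ERK signalling induces transcription factors such as EGR1 and the ETV family within minutes, and phosphatases and adaptors of the DUSP, SPRY and SPRED families that switch the pathway off. Of 26 tested, 18 rose and 2 fell (median 0.40), and 5 rose at least 2-fold. DUSP6 went from 6.33, 6.18, 6.47 and 6.37 in wild type to 7.42, 7.66, 7.49 and 7.47 (1.17 ± 0.08, adjusted p 3.88e-08). ETV5 went from 10.32, 10.37, 10.39 and 10.37 to 11.44, 11.56, 11.43 and 11.33 (1.08 ± 0.04). ETV1 (1.04 ± 0.05), DUSP4 (0.94 ± 0.05), DUSP1 (0.85 ± 0.05) and PHLDA1 (0.67 ± 0.03) also rose. DUSP10, which acts on p38 and JNK rather than ERK, fell (-0.38 ± 0.06), as did FOSL2 (-0.25 ± 0.03).

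Receptor tyrosine kinases, which stand upstream of ERK, fell in 12 of 17 cases and rose in 2 (median -0.29). The PDGF receptor PDGFRA, a driver of glioma growth, fell by 1.49 on the log2 scale (SE 0.06). IGF1R (-1.03 ± 0.03), KDR (-0.84 ± 0.04), FGFR3 (-0.64 ± 0.07) and ERBB2 (-0.54 ± 0.04) fell as well. The hepatocyte growth factor receptor MET rose (0.71 ± 0.04), and EGFR did not pass (0.02 ± 0.03).

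Astrocyte and glioma markers fell in 9 of 11 cases and rose in 1, with a median of -0.40. Beside GFAP these were the glutamate transporter SLC1A3 (-1.31 ± 0.05), the lipid-binding protein FABP7 (-0.80 ± 0.04) and the stemness factors SOX2 (-0.51 ± 0.03) and SOX9 (-0.41 ± 0.03). ID4 rose (0.27 ± 0.04), and the gap junction gene GJA1 did not pass (0.05 ± 0.02). All 9 intermediate filament genes tested fell (median -0.40). NEFL, a neurofilament subunit, changed by -1.54 ± 0.04, vimentin VIM by -0.40 ± 0.02 and the nuclear lamins LMNA and LMNB1 by -0.35 ± 0.02 and -0.31 ± 0.03. GFAP, VIM and NES stand in both lists, so their counts are not separate.

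The other neural lists went several ways. Of 7 neuron markers 4 rose and 3 fell (median 0.23), with SYT1 (0.71 ± 0.06) and UCHL1 (0.23 ± 0.02) higher and NEFL and MAP2 (-0.27 ± 0.04) lower. All 5 fibroblast and mesenchymal markers fell (median -0.43), THY1 by 1.05 on the log2 scale (SE 0.04). The summed linear level of those 5 ran from 35970 to 39078 in wild type and from 30028 to 31805 in the knockout, and that of the neuron markers from 60140 to 63887 and from 39298 to 40854. Whether a change in cell mixture had a part in the results was not tested.

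Adhesion and guidance molecules of the nervous system fell in 29 of 39 cases and rose in 6, with a median of -0.38. Netrins, slits, semaphorins and ephrins steer axons and migrating cells by binding receptors such as DCC, ROBO, plexins, neuropilins and EPH kinases. Among ligands NTN1 and NTN4 (-1.55 ± 0.06) fell. NTN1 went from 10.53, 10.53, 10.29 and 10.44 to 7.58, 7.74, 7.82 and 7.95. Among adhesion molecules L1CAM, CADM1 and the cadherin CDH4 (-0.78 ± 0.03) fell. Neuropilin NRP1 (0.81 ± 0.03), a receptor for semaphorins and VEGF, rose, against the direction of its paralog NRP2 (-0.37 ± 0.02). Clustered protocadherins, whose alternative promoters are chosen with the help of CTCF, fell in 8 of 9 cases (median -0.33), PCDHGA9 by -0.84 ± 0.09 and PCDHGC3 by -0.33 ± 0.03. These isoforms share exons, so reads may have been divided among them.

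Matrix genes were mostly lower. Collagens and the enzymes that modify them fell in 15 of 26 cases and rose in 6 (median -0.22). The chains COL14A1, COL18A1 (-1.49 ± 0.04) and COL5A1 (-1.22 ± 0.04) fell, whereas all 6 members that rose modify collagen: LOX, the prolyl hydroxylases P4HA2 (0.93 ± 0.04), P4HA1 (0.60 ± 0.03) and P3H1 (0.24 ± 0.03) and the lysyl hydroxylases PLOD1 (0.31 ± 0.03) and PLOD3 (0.29 ± 0.03). Integrins, laminins and matrix glycoproteins fell in 23 of 33 cases and rose in 7 (median -0.28). FBLN1, thrombospondin THBS1 (-1.12 ± 0.03), the laminin receptor chain ITGB4 (-1.31 ± 0.04), nidogen NID1 (-0.70 ± 0.03) and tenascin TNC (-0.55 ± 0.02) were lower, and the fibronectin receptor chain ITGA5 was higher (0.60 ± 0.03).

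**Figure D3:**
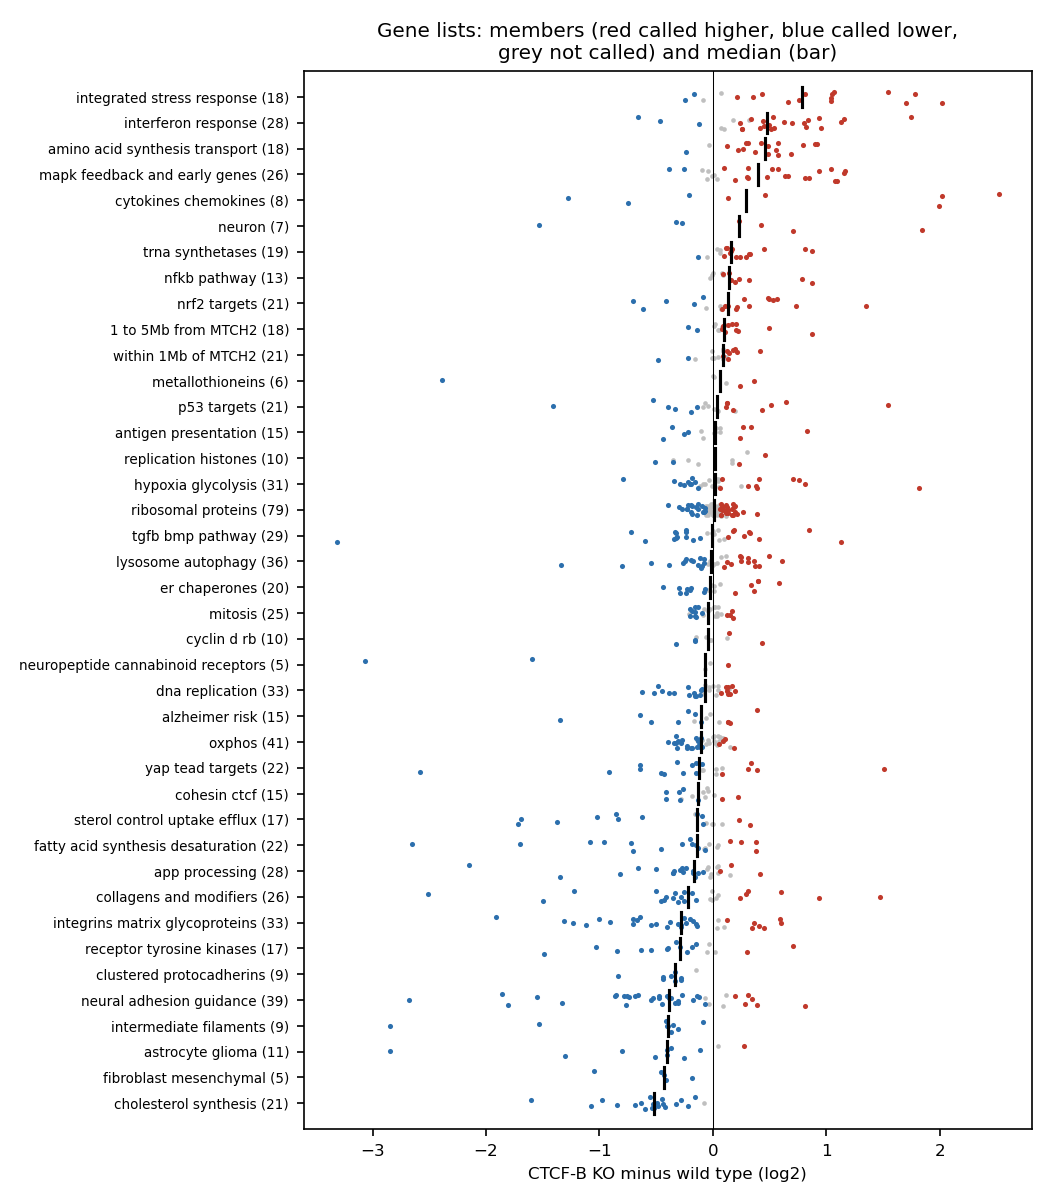
Log2 difference of each tested member (points) of the 40 gene lists with at least 5 tested members, number in brackets, ordered by the list median (bar). Medians run from -0.52 for cholesterol synthesis to 0.79 for the integrated stress response; called genes are red (higher) or blue (lower) and others grey.

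YAP and TAZ, the transcription cofactors that respond to cell density and stiffness, act through TEAD factors. Of 22 pathway and target genes 12 fell and 5 rose (median -0.12). ANKRD1 went from 8.26, 8.12, 8.23 and 8.19 to 5.60, 5.74, 5.67 and 5.47, a 6.00-fold fall, while AJUBA fell by 0.91 and AMOTL2 by 0.43 on the log2 scale. NT5E, also on that list, rose. In the TGF-beta and BMP pathway 13 of 29 fell and 9 rose (median -0.0040). SCUBE3, the inhibitory SMAD6 (-0.72 ± 0.04) and ID2 (-0.59 ± 0.03) were lower, and the latent TGF-beta binding protein LTBP1 (1.13 ± 0.03) and SMAD9 (0.85 ± 0.06) were higher.

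Among 28 genes of APP processing and trafficking, 17 fell and 3 rose (median -0.16). The beta-secretase BACE1 fell by 0.13 on the log2 scale (SE 0.04) and BACE2 did not pass (0.04 ± 0.04). Of the gamma-secretase genes named here NCSTN (-0.27 ± 0.03) and APH1A (-0.26 ± 0.03) fell, and PSEN2 did not pass (-0.02 ± 0.04). Larger changes lay in the adaptor APBA2 and in receptors that sort APP. APBA2 went from 9.27, 9.20, 9.01 and 9.17 to 6.99, 7.10, 6.95 and 7.02. SORL1 went from 10.02, 10.14, 10.09 and 9.89 to 8.65, 8.60, 8.72 and 8.79 (-1.34 ± 0.06, adjusted p 5.26e-10), and SORT1 fell by 0.81 (SE 0.04). The homolog APLP2 was lower too (-0.50 ± 0.02). On a list of Alzheimer risk genes, which shares SORL1, 4 of 15 rose and 7 fell (median -0.11), with ABCA7 (-0.65 ± 0.06) and CTSH (-0.54 ± 0.06) lower and MEF2C (0.39 ± 0.05) higher.

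Of 15 genes of cohesin, its loader and CTCF partners 2 rose and 6 fell (median -0.13; 1 and 3 with all 12 libraries in the fit). LDB1, a bridge between looped sites, fell by 0.42 and the zinc finger protein MAZ by 0.29 on the log2 scale. The cohesin loader subunit MAU2 rose by 0.22 (SE 0.03). The ring subunit RAD21 did not pass (-0.05 ± 0.05). The cohesin gene STAG2 (-0.41 ± 0.13) lost its call with a robust prior variance (adjusted p 0.0883) and with all 12 libraries in the fit (0.267).

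Growth, respiration and translation lists had medians close to 0, with DNA replication and respiration leaning lower. Of 33 DNA replication genes 14 fell and 8 rose (median -0.07), with the thymidylate synthase gene TYMS (-0.45 ± 0.03) and the helicase subunit MCM6 (-0.52 ± 0.03) lower. Mitosis genes fell in 9 and rose in 4 of 25 cases (median -0.04), and 0 by 2-fold. The D cyclin and RB list had 3 lower and 2 higher of 10, and CDKN1A, the inhibitor p21, rose (0.43 ± 0.04). Respiratory chain subunits fell in 20 and rose in 4 of 41 cases (median -0.11), and ribosomal protein genes rose in 24 and fell in 19 of 79 (median 0.01). Replication-dependent histones rose in 2 and fell in 2 of 10 cases. With all 12 libraries in the fit, 39.4% of genes were called, and these counts became 11 lower and 3 higher for DNA replication, 2 and 3 for mitosis, 12 and 2 for respiration and 8 and 5 for ribosomal proteins. Quantile normalization gave 51 ribosomal protein genes higher and 12 lower. With each 10 Mb window centred, 16 DNA replication genes were lower and 3 higher (median -0.12), and 15 and 2 for respiration (median -0.05). That centring called 2892 of all 11128 genes lower and 2636 higher.

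Hypoxia, p53 and lysosome lists had similar numbers of higher and lower members, and NRF2 targets leaned higher. In hypoxia and glycolysis 10 of 31 rose and 10 fell (median 0.02), with NDRG1, VEGFA (0.76 ± 0.05) and SLC2A3 (0.71 ± 0.06) higher and the glucose transporter SLC2A1 lower (-0.79 ± 0.03). Targets of p53 rose in 8 and fell in 6 of 21 cases, GADD45A by 0.64 ± 0.04 upward and BTG2 by -1.41 ± 0.12. Lysosome and autophagy genes rose in 13 and fell in 15 of 36 cases, with the pigment and lysosome factor MITF (-1.34 ± 0.05) and GPNMB (-0.80 ± 0.05) lower and NEU1 (0.61 ± 0.02) and the autophagy receptor SQSTM1 (0.50 ± 0.03) higher. With all 12 libraries in the fit, 8 rose and 6 fell for hypoxia, 4 and 5 for p53 targets and 11 and 8 for lysosome genes. NRF2 targets rose in 13 and fell in 5 of 21 cases (median 0.13; 10 and 4 with all 12 libraries). There the glutathione-making GCLC (0.50 ± 0.04) and SRXN1 (0.74 ± 0.05) rose, and the pentose phosphate enzyme TKT (-0.70 ± 0.03) fell.

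Metallothioneins bind zinc and copper and are induced through MTF1. MT1E went from 8.49, 8.57, 8.48 and 8.61 to 6.14, 6.06, 6.15 and 6.25, 5.23-fold lower, while MT2A (0.36 ± 0.04) and MT1X (0.24 ± 0.06) rose and MT1F did not pass (0.11 ± 0.06). The metal response core TGCNCNC is a common string. It occurs in 5358 of 8350 promoters (64.2%) and in all 4 metallothionein-list promoters with a window, none of them from a gene called lower. The cannabinoid receptor CNR1 fell with NPY1R (-1.59 ± 0.07), while DAGLA, which makes its ligand, did not pass (-0.07 ± 0.04).

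Differences followed stretches of chromosomes as well as pathways. The median log2 difference was -0.13 over the 729 tested genes of chromosome 2, -0.13 over 435 on chromosome 9, -0.13 over 341 on chromosome 15 and -0.11 over 1137 on chromosome 1. It was 0.13 over 592 genes on chromosome 7, 0.12 over 565 on chromosome 6, 0.11 over 356 on chromosome 14 and 0.10 over 583 on chromosome 12. On chromosome 9, 52.9% of genes were called lower and 12.4% higher, and on chromosome 7, 14% lower and 50.8% higher. The knockout libraries ran close together, from -0.14 to -0.13 on chromosome 9 and from 0.12 to 0.13 on chromosome 7. Wild-type libraries stayed between -0.0040 and 0.0040 for both. With GC and length trends removed the medians were -0.11 and 0.13. A chromosome's median can hide uneven shifts along it. On chromosome 9 the 10 Mb window from 30 Mb had a median of -0.002 and that from 130 Mb -0.185. On chromosome 1 the window from 0 Mb had 0.067 and that from 150 Mb -0.182.

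**Figure D4:**
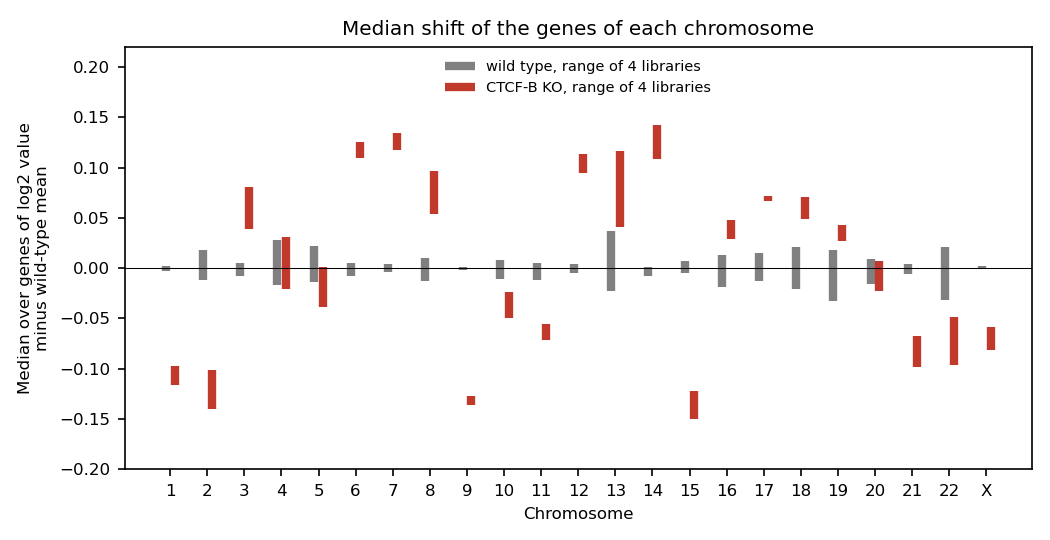
For each chromosome, the median over its tested genes of the log2 value minus the wild-type mean; grey bars span the 4 wild-type libraries and red bars the 4 CTCF-B KO libraries. Chromosomes 1, 2, 9 and 15 lie below 0 and chromosomes 6, 7, 12 and 14 above 0 in all 4 knockout libraries.

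These chromosome medians were looked at after 10 Mb windows had shown neighbours moving together. When each chromosome of each library was centred on its own median, 5974 genes were called, and 4944 of these were among the 6601 in the same direction. Centring each 10 Mb window instead gave 5528, with 4372 shared. Some list medians moved little: cholesterol synthesis had medians of -0.49 and -0.52 under these 2 centrings, the stress response 0.69 and 0.78, interferon genes 0.49 and 0.43 and ERK feedback genes 0.37 and 0.39. The neural adhesion median went to -0.34 and -0.23, and that of the TGF-beta list to -0.06 and -0.14. All 40 of the largest rises and falls stayed called, which follows in part from their choice as the largest changes. The cause of the shared shifts was not tested.

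Of 279 windows of 10 Mb with at least 10 genes, 11 had a median of -0.2 or lower and 1 of 0.2 or higher. The lowest was on chromosome X from 60 to 70 Mb, with a median of -0.46 over 15 genes, all 15 below 0 and 11 called lower. There MSN, which links actin to the membrane, fell by 0.65 (SE 0.02), SPIN4 by 0.73 (SE 0.06), the ephrin EFNB1 by 0.68 (SE 0.07) and LAS1L by 0.59 (SE 0.03) on the log2 scale. Next on chromosome X from 70 to 80 Mb, the median was -0.27 over 27 genes, 20 of them called lower, with MED12 (-0.65 ± 0.04), a Mediator subunit, TAF1 (-0.63 ± 0.04) and ZMYM3 (-0.61 ± 0.04) among them. From 120 to 130 Mb, 13 of 15 were called lower (median -0.26), with the ubiquitin ligase scaffold CUL4B at -0.89 ± 0.06.

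On chromosome 15 the window from 40 to 50 Mb had 62 of 78 genes called lower and 3 higher (median -0.33). FBN1, the gene of fibrillin 1, fell by 1.00 (SE 0.05), the dUTPase gene DUT by 0.89 (SE 0.03) and FRMD5 by 0.84 (SE 0.04), whereas CHAC1 of the stress response rose there. Within that window the bins of 2 Mb had medians of -0.23 at 40 Mb, -0.34 at 42 Mb, -0.38 at 44 Mb and -0.41 at 48 Mb. The bin at 46 Mb held 1 gene, at 0.08, and the bin from 50 Mb onward had -0.07. At the end of chromosome 2, from 240 Mb, all 20 genes were called lower (median -0.28), with the BCL2 family member BOK (-0.69 ± 0.07), RNPEPL1 (-0.47 ± 0.04), FARP2 (-0.46 ± 0.04) and D2HGDH (-0.44 ± 0.06) lowest. The highest window lay on chromosome 3 from 110 to 120 Mb, with 14 of 18 called higher (median 0.21) and CCDC80 at 0.75 ± 0.04.

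Genes near MTCH2 moved little. Distances are from the MTCH2 start to the start of the other gene, negative towards lower coordinates. Of 21 tested genes whose start lies within 1 Mb of it, 8 rose and 2 fell (median 0.09), and from 1 to 5 Mb away 10 of 18 rose and 2 fell (median 0.10). These shares lay above the 29.2% called higher among all genes. With all 12 libraries in the fit, 4 rose in each of these distance classes. That fit called 2100 of all 11128 genes higher, so both shares then lay near the share over all genes. With each 10 Mb window centred the medians were -0.0060 and 0.0050. The window of chromosome 11 from 40 to 50 Mb, which holds MTCH2, had 18 of 39 called higher and 4 lower (median 0.09). Chromosome 11 as a whole had a median of -0.06 but was not even. Its windows from 0, 10 and 30 Mb had medians of 0.078, 0.152 and 0.103, near that of the MTCH2 window or above it. The window from 60 Mb, with 175 genes, had -0.136. The MTCH2 window was 85th of 279 from the top.

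Closest to MTCH2, NDUFS3 and PTPMT1, both at -77 kb, and KBTBD4, at -64 kb, did not pass, with differences of 0.09 ± 0.04, 0.14 ± 0.09 and 0.01 ± 0.05. The RNA-binding protein gene CELF1, also at -77 kb, rose by 0.14 ± 0.03, and FNBP4, at 125 kb, by 0.20 ± 0.04. SLC39A13, a zinc transporter gene at -235 kb (chr11:47407132-47416501, plus strand), went from 10.10, 10.01, 9.98 and 10.13 to 10.47, 10.56, 10.46 and 10.38 (0.42 ± 0.04, adjusted p 3.64e-06). The proteasome subunit gene PSMC3 rose by 0.18 ± 0.03, the lysosomal phosphatase gene ACP2 by 0.21 ± 0.03 and MADD by 0.15 ± 0.04. LRP4, at -724 kb, fell (-0.48 ± 0.05), as did the phosphatase PTPRJ, at 338 kb (-0.22 ± 0.04).

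Farther out, TTC17 changed most (chr11:43358932-43494933, plus strand). It starts at -4284 kb and went from 10.91, 10.95, 10.97 and 10.98 to 11.79, 11.82, 11.84 and 11.85 (0.87 ± 0.03, adjusted p 2.16e-11), with the libraries of each group close together and no overlap. The tetraspanin gene CD82, at -3078 kb, rose by 0.50 ± 0.03. The calls of gene C11orf49 and gene DDB2 were lost without CTCF-B KO replicate 1 (adjusted p 0.0643 and 0.0841), and that of DDB2 also without wild-type replicates 2 or 4 or CTCF-B KO replicate 2.

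**Figure D5:**
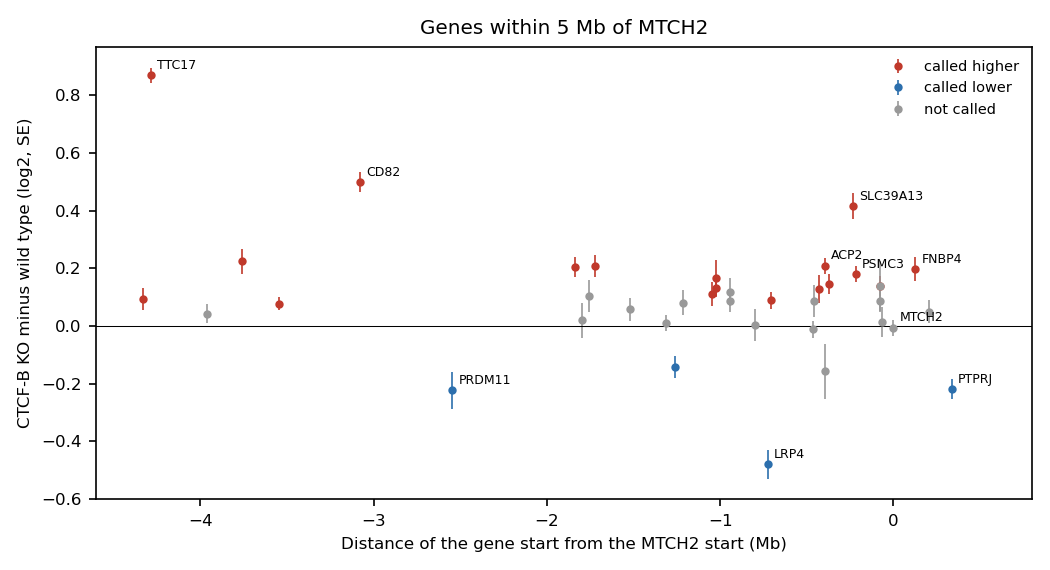
Log2 difference with its SE for the 39 tested genes whose start lies within 5 Mb of the MTCH2 start, by distance in Mb (negative towards lower coordinates). TTC17 at 0.87 and CD82 at 0.50 stand highest, LRP4 at -0.48 lowest, and MTCH2 lies at 0 distance with no called difference.

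Cells without CTCF-A share the wild-type controls, so both knockouts were set against each other directly in a model of all 12 libraries, in which 66% of genes were called. Of the 40 largest rises and falls of CTCF-B KO, 37 differed between the knockouts. In 33 of these CTCF-B KO lay further from wild type (16 rises and 17 falls), and in 4 CTCF-A KO did. As these 40 were chosen as the largest changes of CTCF-B KO, that tally follows in part from the choice and ranks neither knockout. The widest of these gaps was at CXCL8, with a mean of 12.17 in CTCF-B KO, 9.65 in wild type and 8.82 in CTCF-A KO (CTCF-B minus CTCF-A 3.36 ± 0.15, adjusted p 1.6e-09). L1CAM likewise stood on opposite sides, at 7.63, 9.48 and 10.67 (-3.05 ± 0.06, adjusted p 3.82e-12). So did COL14A1, at 9.18, 11.70 and 12.05 (-2.87 ± 0.09, adjusted p 8.63e-11). Many of the 40, however, moved the same way from wild type in both knockouts. Called in CTCF-A KO against wild type were SCUBE3 (-2.17), NPY1R (-2.58), SCD (-1.53), NDRG1 (1.25) and GDF15 (1.05). NUP210 (-0.01) and NT5E (-0.15) did not pass there.

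OASL (adjusted p 0.282), PCDH10 (0.449) and S100A2 (0.248) did not pass between the knockouts. OASL stood at 8.49 in CTCF-B KO and 8.63 in CTCF-A KO against 6.74 in wild type. GFAP was slightly higher in CTCF-B KO, with 12.83 against 12.57 (0.26 ± 0.07, adjusted p 0.00442). APP lay at 16.53 in CTCF-B KO, 15.79 in CTCF-A KO and 17.19 in wild type (CTCF-B minus CTCF-A 0.74 ± 0.03, adjusted p 1.12e-09). CTCF was lower in CTCF-A KO than in wild type too (-0.30, adjusted p 2.11e-05) and did not pass between the knockouts (0.04 ± 0.04, adjusted p 0.375). MTCH2, not called in CTCF-B KO, was lower in CTCF-A KO than in wild type (-0.46, adjusted p 2.39e-05). The CTCF-A KO libraries were more variable, with pairs of them 0.08 to 0.29 apart in median absolute value. Leaving out any one of them left 37 or 38 of the 40 different.

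Chromosome medians of both knockouts are given side by side. Chromosome 15 had a median of -0.13 in CTCF-B KO and 0.15 in CTCF-A KO, chromosome 10 had -0.04 and -0.30, and chromosome 22 had -0.06 and 0.26, while chromosome 2 had -0.13 in both. These medians share the wild-type libraries, and their difference was not tested. CTCF-A KO libraries also carried a GC trend: their genes of high GC content lay 0.06 to 0.96 above those of low GC content, against -0.15 to 0.09 in the other groups. The CTCF-A KO medians given here keep that trend, whose part in them was not tested.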

How the data were processed

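RNA was sequenced from 8 libraries compared here, of 12 in the series. Per the submitters' processing notes, Trimmomatic 0.33, featureCounts and DESeq2 were used with GRCh38.p7 (hg38). The aligner, annotation and strand setting are not given in the sources used here. The authors deposited one table of normalised log2 values, from 1.34 to 17.97; which log2 transformation was applied is not stated, and depth is unknown, so counting error cannot be given.

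Genes reaching 10 on the linear scale in 4 libraries were kept. limma 3.58.1 in R 4.3.3 was fitted to the log2 values with a trended prior variance, two-sided, with Benjamini-Hochberg adjustment over 11128 genes at 0.05. On simulated data with 200 changed genes and independent noise, it recovered 100% of those changed by 1 and 78% of those changed by 0.3. In the data 59.3% of genes were called, so these shares need not hold for this comparison. Positions come from GENCODE 29, which held 11151 of 11178 identifiers. Standard errors are limma's.

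The genes named are the 20 largest rises and falls that were called, at least 2-fold, at a mean of at least 50 in either group and without overlap, then APP, CTCF, MTCH2 and its neighbours, up to 6 members of each list with the smallest adjusted p and 4 per window. ATF4, IFIT3, list members that did not pass and those named as exceptions to a list's direction were chosen after their values were seen. Members and lists were chosen with earlier results of these data known. Alternatives covered the libraries fitted, scaling, filters, pseudocount, GC and length trends, prior variance and leaving out each library. Centring chromosomes or windows was added after seeing the data. Some genes are not reported here.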

Additional observations from a re-analysis of the deposited data

Results flagged for a closer look

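Each group of 4 libraries was checked for a single library far from the rest in the 40 largest changes and in APP, CTCF and MTCH2, 86 groups in all. A library was noted where its gap to the nearest other exceeded Dixon's critical share of the group's range, which chance alone gives in about 1 in 20 groups. That held in 2 groups. CXCL8, the chemokine that rose most, stood at 9.515 in wild-type replicate 2 against 9.677 to 9.702 in the other wild-type libraries, a gap of 0.867 of the range. NUPR1 stood at 9.099 in CTCF-B KO replicate 4 against 9.28 to 9.289 in the other knockout libraries, a gap of 0.954 of the range. Both gaps are small beside the differences between the groups, 2.52 for CXCL8 and 1.71 for NUPR1.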

How the results depend on the processing

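Of 282 called genes named or checked, 35 lost their call in at least 1 of 21 alternatives, and 0 of the 40 largest did. For those 40 this follows in part from their choice as the largest changes. Fitting all 12 libraries called 4389 genes, 2100 of them higher, and 18 named genes lost their call. The median difference was 0.0016 in both fits, but the 12-library fit also draws its spread from the CTCF-A KO libraries. The cause of the lost calls was not tested. Leaving out each of the 8 libraries gave 6140 to 6603 called genes, 39 to 44 at least 2-fold higher and 115 to 125 at least 2-fold lower. The split moved to 3680 higher and 2994 lower with quantile normalization, 3509 and 3121 with median centring, and 3589 and 3431 with GC and length trends removed. Quantile normalization turned the median of the endoplasmic reticulum chaperones to 0.059. Windows past 0.2 numbered 12, but 7 with each chromosome centred and 0 with each window centred, which removes them by construction. Among other reversals, window centring turned the medians of the neuropeptide and cannabinoid list (0.037) and of the X chromosome window from 70 Mb (0.021), and the differences of BUB1B (0.112), C11orf49 (-0.006) and CENPA (0.011). Medians within 0.05 of 0 turned too: antigen presentation (-0.063), hypoxia (-0.058), mitosis (0.008), histones (-0.010) and ribosomal proteins (-0.003) with windows centred, and the same lists but mitosis with chromosomes centred (-0.061, -0.031, -0.032 and -0.012). Replicate numbers did not pair the libraries, as correlations of same-numbered libraries ran from -0.084 to 0.134, and the fit with a replicate block called 6697 genes. CCND1 lost its call without wild-type replicate 1 or 4. Unknown depth limits what can be said of genes at low values.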
